A study of Macaca mulatta with 49 samples.

Results

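The comparison described here asks whether gene expression in CD4+ central memory T cells (CD4 TCM) of rhesus macaques took a different course after an antibody against interleukin 15 (IL-15) than after an IgG1 control antibody. All samples labelled as sorted CD4+ TCM from peripheral blood were taken, which gave 24 of the 48 samples of the study. They came from 12 animals, of which 6 received anti-IL-15 antibody and 6 received IgG1 control antibody. Each animal was sampled once before treatment and once after it, so the design has 4 groups of 6 samples. Every group holds total RNA of the same sorted population from Macaca mulatta, measured on a human Illumina BeadChip of 47230 probes. The age of the animals, the antibody dose and the interval between the samples were not given in the sources used here. For each animal and gene the change was the log2 intensity after treatment minus that before treatment. The difference in change was the mean change of the 6 anti-IL-15 animals minus that of the 6 IgG1 animals.

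Interleukin 15 is presented to lymphocytes bound to its alpha receptor chain and signals through the receptor beta chain (IL2RB), the common gamma chain (IL2RG), the kinases JAK1 and JAK3, and STAT5. It is known for sustaining natural killer (NK) cells and memory CD8 T cells, while memory CD4 T cells also draw on interleukin 7 through IL7R. The suppressors of cytokine signalling, SOCS1, SOCS2, SOCS3 and CISH, are induced by STAT proteins and act back on cytokine receptors. IRF1 is a transcription factor induced by interferons that drives guanylate binding proteins and antigen presentation genes.

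The sorted population was checked against its markers. CD3D, a chain of the T cell receptor complex, was detected on 24 of 24 CD4 TCM arrays, as were CCR7, the lymph node homing receptor of central memory cells, and IL7R. CD8A had a median level of 5.59 (log2 normalized intensity) on the CD4 TCM arrays and 12.97 on the arrays of CD8 TCM from the same animals. Its probe was detected on 19 of 24 CD4 TCM arrays, where the highest level was 7.17, and CD8B was detected on 0 of 24 CD4 TCM arrays. The probe for CD4 itself was detected on 1 of 24 arrays and that for CD27 on 0, so these human probes did not check the label in macaque RNA. Between 11988 and 14867 probes were detected per array. Anti-IL-15 animal 3 stood apart: the median correlation of its arrays with the other CD4 TCM arrays was 0.954 before and 0.962 after treatment, against 0.969 to 0.978 for all others. In that animal 16.0% of genes had a change of more than 1 in size on the log2 scale, whereas the share was 0.348% to 3.51% in the other 11 animals. Of the main values that moved by more than 1.5 times without this animal, many are also given without it.

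The number of sorted CD4 TCM was lower after treatment in 6 of 6 anti-IL-15 animals and in 4 of 6 IgG1 animals. The log2 ratio of cells after to before treatment ran from -1.61 through a median of -0.948 to -0.0943 under anti-IL-15. Under IgG1 it ran from -0.963 through -0.511 to 0.583. The groups overlapped. The mean was -0.923 ± 0.541 (SD, n = 6) against -0.318 ± 0.568 (SD, n = 6), a difference of -0.605 with a two-sided exact permutation p of 0.0887 and an adjusted p of 0.266 over 3 sample measures. The smallest p that 924 assignments of the animals allow is 0.00216. The other sample measures were the number of detected probes (exact permutation p = 0.253) and the median intensity (exact permutation p = 0.909). The cell number is that of the sort and cannot be told apart from the blood volume or sort time used, which the labels do not give.

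Across 8919 genes, no gene passed the test of the difference in change. With limma and Benjamini-Hochberg adjustment over all genes, 0 genes (0%) had an adjusted p below 0.05 and the lowest adjusted p was 0.895. At an unadjusted p below 0.05 there were 336 genes, of which 120 (1.35%) had the higher change under anti-IL-15 and 216 (2.42%) the lower. Together these were 3.77% of the genes tested, below the share of 0.05 expected if no gene differed. The median difference was -0.03, with a median standard error of 0.22 and a median half-width of the 95% confidence interval of 0.47. For 94.1% of genes the 95% interval of the difference lay wholly between -1 and 1, so a difference in change of more than 2-fold lay outside the interval of those genes. Only 7 genes had a measured difference of more than 1 in size and 337 of more than 0.5.

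The separate changes of the 2 groups of animals gave few calls. Under anti-IL-15, 3 genes (0.0336%) passed the adjusted threshold, and all rose: SOCS1, IRF1 and IFI27. Under IgG1, 0 genes (0%) passed, and 315 had an unadjusted p below 0.05. A gene past the threshold in one group and not in the other is not thereby shown to differ, and for none of these 3 genes did the difference itself pass. With the sorted cell number as a covariate the changes were 0.84 for SOCS1, 0.89 for IRF1 and 1.65 for IFI27, and none passed (adjusted p = 0.992 for each). Without the animal as a block the changes were the same as in the blocked fit and none passed (adjusted p = 0.999 for each). Without anti-IL-15 animal 4 the adjusted p was 0.057 for SOCS1 and 0.194 for IRF1 and IFI27.

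**Figure D1:**
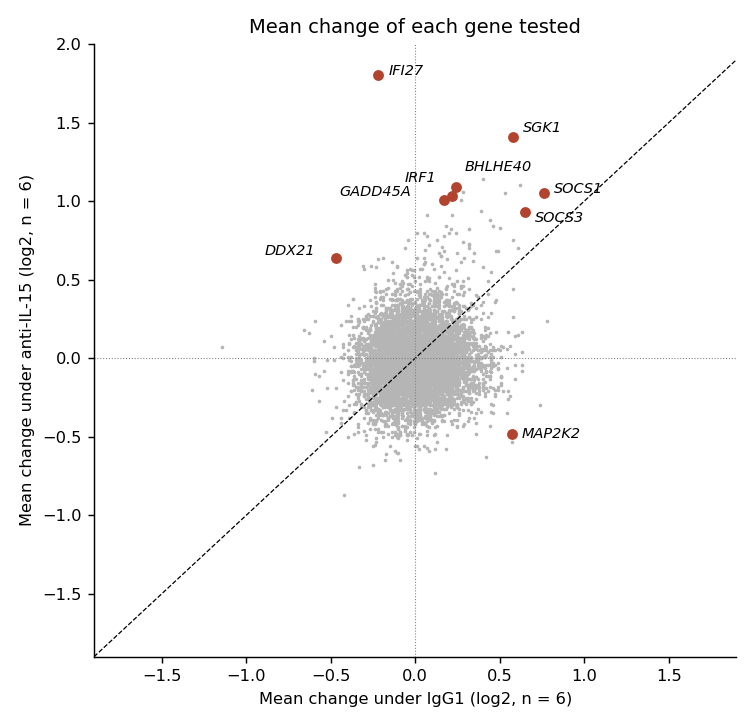
Mean change of each of the 8919 genes tested under IgG1 (horizontal axis, log2, 6 animals) and under anti-IL-15 (vertical axis, log2, 6 animals), with the line of equal change dashed and 9 described genes in red. SOCS1 and SOCS3 lie near the line with changes of 1.05 and 0.93 against 0.76 and 0.65, while IFI27 lies far above it at 1.80 against -0.22.

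IFI27, a small membrane protein gene strongly induced by type I interferon, had the largest difference of all genes and the lowest unadjusted p. Its level in the anti-IL-15 animals ran from 5.16 through a median of 7.07 to 8.16 before treatment and from 6.89 through 8.53 to 10.85 after it. In the IgG1 animals it ran from 5.19 through 7.03 to 7.67 before and from 5.00 through 6.30 to 8.32 after. The groups started at like levels, with a difference before treatment of 0.17. Its change was above 0 in 6 of 6 anti-IL-15 animals, from 0.53 through 1.81 to 3.70, and the highest of these was animal 3. Under IgG1 it ran from -0.74 through -0.34 to 0.78. The 2 groups overlapped, since IgG1 animal 1 at 0.78 exceeded anti-IL-15 animals 1 and 2 at 0.69 and 0.53. The difference in change was 2.01 ± 0.42 (SE; 95% interval 1.14 to 2.89), a 4.03-fold difference, with an adjusted p of 0.895. Without anti-IL-15 animal 3 it was 1.63, with an adjusted p of 0.453. The rise under anti-IL-15 alone was 1.80 ± 0.30 (SE; adjusted p = 0.0244), and 1.42 without animal 3 (adjusted p = 0.036). It did not pass with the deposited value table or with no background correction (1.28; adjusted p = 0.316 for each), with a normexp offset of 50 (1.51; adjusted p = 0.13) or without the filter on dim probes (1.80; adjusted p = 0.512).

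**Figure D2:**
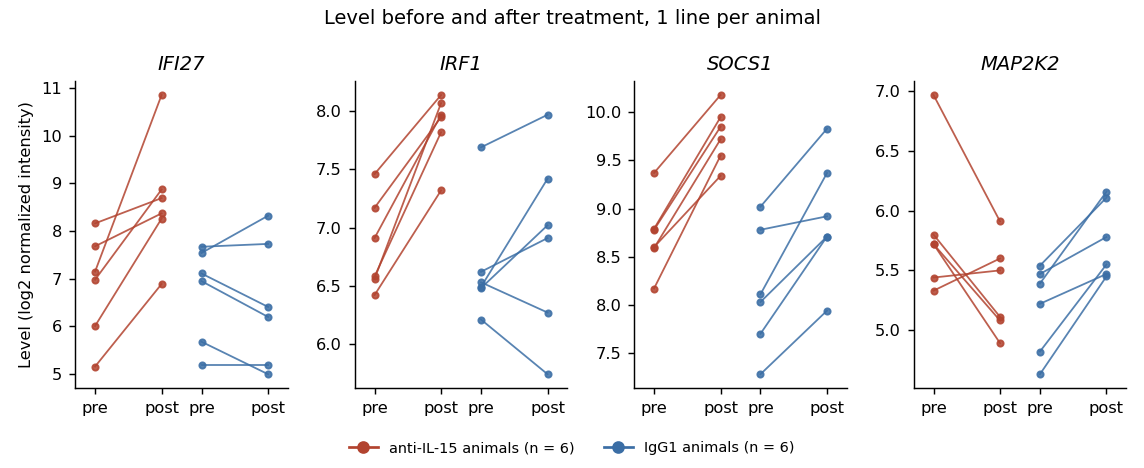
Level (log2 normalized intensity) of 4 genes before and after treatment in CD4 TCM, with 1 line per animal, anti-IL-15 animals in red and IgG1 animals in blue. IFI27, IRF1 and SOCS1 are higher after treatment in all 6 anti-IL-15 animals, and SOCS1 is higher in all 6 IgG1 animals as well.

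Other genes of the type I interferon response leaned the same way by smaller amounts. Of 37 listed genes 20 were tested, IFI27 among them, and 19 of the 20 had a positive difference in change, against 45.4% of all genes. The median difference was 0.22, against -0.03 over all genes, and 0 of 20 passed the adjusted threshold. At an unadjusted p below 0.05 there were 5, all with the higher change under anti-IL-15, where 1.35% of all genes lay. These were IFI27, IFI44, HERC5, IFI6 and MX1, the last 2 named after their values were seen. IFI44, an interferon-induced gene of unsettled function, had changes of -0.11 through 0.35 to 1.41 in the anti-IL-15 animals and -0.59 through -0.29 to 0.22 in the IgG1 animals, a difference of 0.67 ± 0.24 (SE; adjusted p = 0.998). HERC5 attaches the ubiquitin-like ISG15 to proteins. Its changes were -0.12 to 0.31 against -0.79 to -0.04, with a difference of 0.49 ± 0.18 (SE; adjusted p = 0.998), of which -0.36 was the mean IgG1 change. For MX1, an antiviral GTPase, the difference was 0.75, and for IFI6 it was 0.60. OAS1, IFIT1 and XAF1, also classical interferon-induced genes, each had a difference of 0.02, and IFI44L, a relative of IFI44, had the one negative difference at -0.12. The list was therefore uneven, with a few genes of large difference and many near 0.

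Per animal, the median change over the interferon list ran from -0.07 through 0.17 to 0.36 under anti-IL-15 and from -0.16 through -0.05 to 0.01 under IgG1. It was above 0 in 5 of 6 anti-IL-15 animals and in 1 of 6 IgG1 animals. Without anti-IL-15 animal 3, 15 of 20 genes had a positive difference and the median was 0.18. With median scaling in place of quantile normalization the median of all genes shifted from -0.03 to -0.15. The list then had 12 of 20 genes above 0 and a median of 0.08, which was 0.22 above that of all genes, against 0.25 above it in the quantile-normalized values. Monocyte and dendritic cell markers also leaned toward a positive difference. Of 19 listed 5 were tested, 4 of the 5 had a positive difference and their median was 0.33. CD14 went the other way at -0.11, and for AIF1, at 0.33, the mean change was 0.00 under anti-IL-15 and -0.33 under IgG1. Among the monocyte and dendritic cell markers, CD68 had -0.21 with its second probe, so the count depends on the probe. Their summed signal ran from 1257 to 2537 before and 1491 to 2780 after anti-IL-15, and from 1197 to 2006 before and 1280 to 1672 after IgG1. S100A8, S100A12, CSF1R, ITGAX, CLEC10A, CD1C, FCER1A and CTSS were detected on none of the 24 arrays, and 11 of the 19 markers were detected on at least 1 array. VCAN, a proteoglycan of monocytes, had a difference of 0.49 ± 0.19 (SE; adjusted p = 0.998). The part of other cells in the interferon values was not tested. In these sorted bulk samples, fewer cells of a type and less RNA per cell cannot be told apart.

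IRF1 rose under anti-IL-15, with a higher level after treatment in 6 of 6 animals. Its level ran from 6.42 through 6.74 to 7.46 before and from 7.32 through 7.96 to 8.14 after anti-IL-15. Under IgG1 it ran from 6.21 through 6.51 to 7.69 before and from 5.74 through 6.96 to 7.97 after. The changes were 0.68 through 0.98 to 1.52 under anti-IL-15 and -0.47 through 0.28 to 0.93 under IgG1, so the groups overlapped, with IgG1 animal 2 at 0.93. The difference in change was 0.82 ± 0.23 (SE; 95% interval 0.32 to 1.31; adjusted p = 0.998), a 1.76-fold difference, and 0.84 without anti-IL-15 animal 3 and 0.54 with the deposited value table. The rise under anti-IL-15 alone was 1.03 ± 0.17 (SE; adjusted p = 0.0244). The call was lost when animal 1 (adjusted p = 0.105) or animal 2 (adjusted p = 0.155) of that group was left out, under median scaling (adjusted p = 0.101) or without the filter on dim probes (adjusted p = 0.18), with changes from 0.93 to 1.03.

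Guanylate binding proteins and antigen presentation genes were tested with IRF1 as 1 list. Of 24 listed, 20 were tested, 17 had a positive difference and the median was 0.18. At an unadjusted p below 0.05 there were 3, all higher: IRF1, GBP2 and GBP1P1. Of all genes 45.4% had a positive difference and 1.35% were higher at that level. For GBP2, an interferon-induced GTPase, the changes were 0.10 through 0.62 to 1.32 under anti-IL-15 and -0.65 through 0.11 to 0.52 under IgG1, with a difference of 0.63 ± 0.24 (SE; adjusted p = 0.998). GBP1P1, a pseudogene related to GBP1 whose probe may read its parent, had a difference of 0.65 ± 0.29 (SE; adjusted p = 0.998). The peptide transporter gene TAP1 and the class I light chain B2M had differences of 0.09 and 0.06. The list median lay 0.21 above that of all genes. Under median scaling 12 of 20 genes had a positive difference and the list median was 0.04, which was 0.18 above that of all genes. Without anti-IL-15 animal 6 the list median was 0.10.

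**Figure D3:**
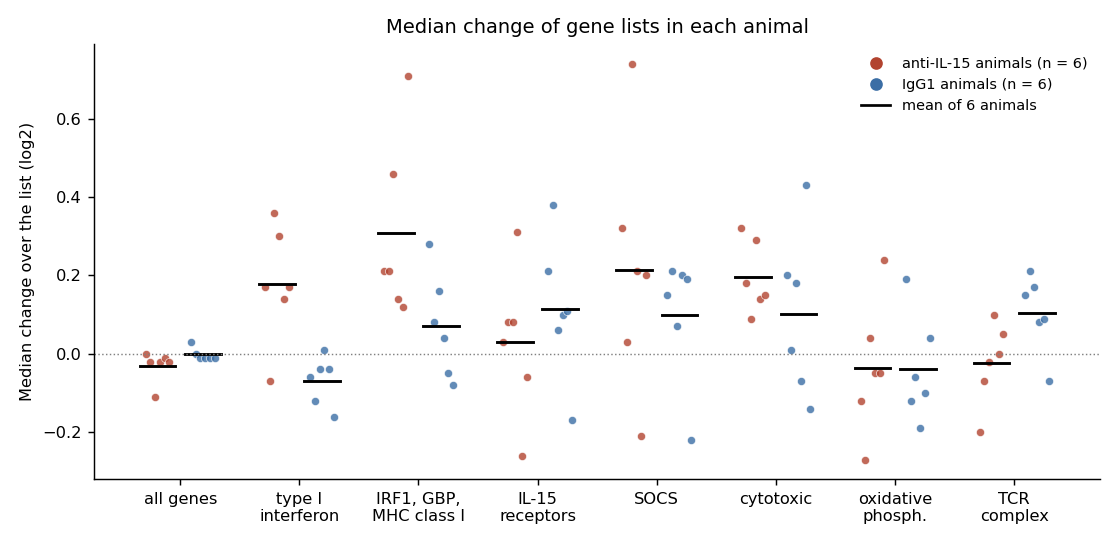
Median change (log2) over each gene list in each animal, anti-IL-15 animals in red and IgG1 animals in blue, with the mean of 6 animals as a black line. The interferon list lies from -0.07 to 0.36 under anti-IL-15 and from -0.16 to 0.01 under IgG1, while the IL-15 receptor and oxidative phosphorylation lists overlap widely.

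SOCS1 rose under anti-IL-15, and its change under IgG1 was nearly as large. Its level ran from 8.17 through 8.69 to 9.37 before and from 9.34 through 9.78 to 10.18 after anti-IL-15, and from 7.28 through 8.07 to 9.02 before and 7.94 through 8.82 to 9.83 after IgG1. The change was above 0 in all 12 animals, from 0.75 through 1.10 to 1.38 under anti-IL-15 and from 0.14 through 0.75 to 1.26 under IgG1, with wide overlap. The mean changes were 1.05 (SE 0.14; adjusted p = 0.00524) and 0.76 (SE 0.14; adjusted p = 0.324). Their difference was 0.29 ± 0.20 (SE; 95% interval -0.13 to 0.71; adjusted p = 0.998), so an effect of anti-IL-15 beyond that of IgG1 of more than 0.71 lay outside the interval. SOCS3 was also higher after treatment in 6 of 6 animals of each group, by a mean of 0.93 (SE 0.20; adjusted p = 0.274) under anti-IL-15 and 0.65 under IgG1. Its difference was 0.28 ± 0.29 (SE; 95% interval -0.33 to 0.88), and 0.10 with its second probe. Of the other SOCS genes, CISH, a feedback inhibitor induced by STAT5, had a difference of 0.04 (95% interval -0.63 to 0.70) and SOCS2 one of -0.09 (95% interval -0.80 to 0.62). SOCS4, SOCS5 and SOCS7 had differences of -0.19, 0.10 and -0.11, and that of SOCS7 was 0.03 without anti-IL-15 animal 3. Of 8 listed SOCS family genes 7 were tested, 4 had a positive difference with a median of 0.04 (0.01 without anti-IL-15 animal 3), and 0 passed the test.

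The IL-15 receptor chains, their relatives and their kinases showed no difference that passed the test. Of 17 listed genes 10 were tested, 2 had a positive difference and the median was -0.05, near that of all genes. IL15 and IL15RA did not pass the detection filter. For IL2RB, the signalling chain shared by the IL-2 and IL-15 receptors, the changes were -0.33 through 0.15 to 0.51 under anti-IL-15 and -1.07 through 0.11 to 0.43 under IgG1, a difference of 0.25 ± 0.25 (SE; 95% interval -0.28 to 0.78). For the common gamma chain IL2RG the changes were -0.57 through -0.10 to 0.30 and 0.01 through 0.09 to 0.53, a difference of -0.28 ± 0.19 (SE; 95% interval -0.69 to 0.12). JAK1, the kinase bound to IL2RB, had changes below 0 in 5 of 6 anti-IL-15 animals and above 0 in 6 of 6 IgG1 animals, with a difference of -0.35 ± 0.17 (SE; adjusted p = 0.998). The highest anti-IL-15 value, 0.37, was that of animal 2 and lay above all IgG1 values. STAT5A and STAT5B, the transcription factors of the pathway, had differences of -0.02 (95% interval -0.43 to 0.39) and -0.06 (95% interval -0.50 to 0.39). The high-affinity IL-2 receptor chain IL2RA had a difference of -0.20, the interleukin 7 receptor IL7R of -0.19, IL4R of -0.02, IL21R of -0.04 and STAT3 of 0.21 (0.04 with its second probe).

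Genes induced through STAT5 were as mixed. Of 22 listed 18 were tested, 10 had a positive difference and the median was 0.01; without anti-IL-15 animal 3, 7 of the 18 were positive with a median of -0.08. Only BCL2L1 of the 18 had an unadjusted p below 0.05, with the lower change under anti-IL-15. Over all genes 45.4% had a positive difference and 2.42% had the lower change at that level. BCL2L1 encodes the survival protein BCL-XL. Its change was above 0 in 1 of 6 anti-IL-15 animals (median -0.16) and in 6 of 6 IgG1 animals (0.13 through 0.32 to 0.69), a difference of -0.59 ± 0.23 (SE; adjusted p = 0.998), but its second probe gave 0.15. MCL1, another survival gene, had a difference of 0.41 and OSM, the cytokine oncostatin M, one of 0.50. In the BCL2 family, 9 of 16 listed genes were tested and 6 had a positive difference. BCL2A1, an anti-apoptotic gene, had a difference of 0.46 ± 0.19 (SE; adjusted p = 0.998). The pro-apoptotic BAK1 had one of 0.59 ± 0.26 (SE; adjusted p = 0.998), made up of a mean change of -0.60 under IgG1 and -0.02 under anti-IL-15. BCL2 itself had a difference of -0.11.

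**Figure D4:**
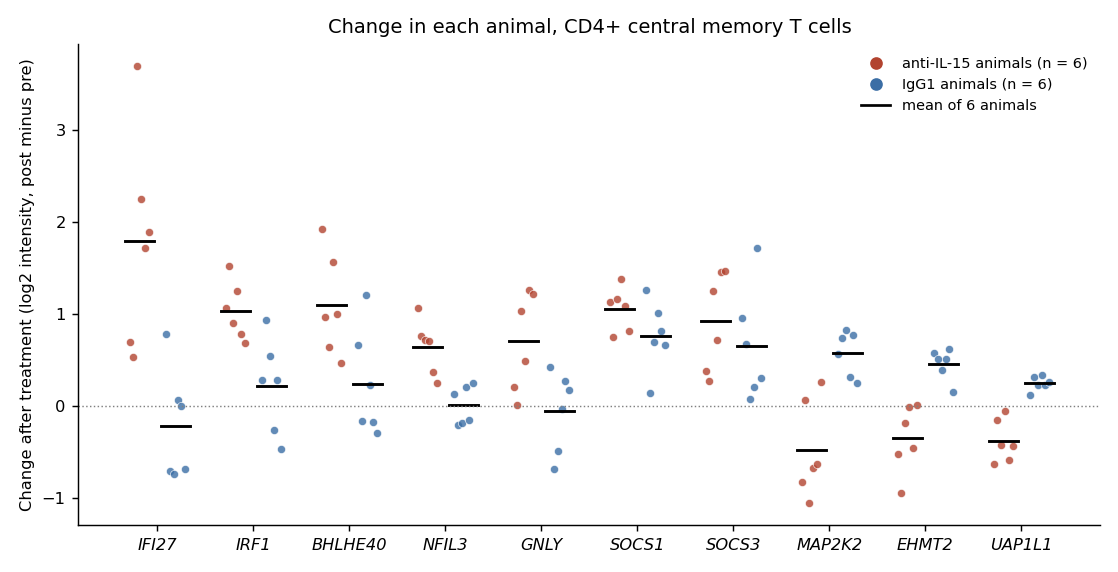
Change after treatment (log2 intensity, post minus pre) of 10 genes in each of 12 animals, anti-IL-15 animals in red and IgG1 animals in blue, with the mean of 6 animals as a black line. NFIL3 lies between 0.25 and 1.06 under anti-IL-15 and between -0.21 and 0.25 under IgG1. EHMT2 and UAP1L1 lie wholly lower under anti-IL-15 than under IgG1, and MAP2K2 lies lower in the mean with some overlap.

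Among transcription factors of effector differentiation, the 3 genes with an unadjusted p below 0.05 all had the higher change under anti-IL-15. Of 19 listed 15 were tested, 9 had a positive difference and the median was 0.06 (0.17 without anti-IL-15 animal 3), against 45.4% of all genes positive and 1.35% of all genes higher at that level. The median lay 0.08 above that of all genes, and 0.01 above it under median scaling. NFIL3, a repressor active in lymphocyte differentiation, ran from 5.34 through 5.81 to 6.24 before and 6.05 through 6.52 to 6.83 after anti-IL-15. In the IgG1 animals it ran from 5.76 through 6.13 to 6.32 before and 5.97 through 6.03 to 6.34 after. Its change was 0.25 through 0.71 to 1.06 under anti-IL-15 and -0.21 through -0.01 to 0.25 under IgG1, so the groups met at 0.25. The difference was 0.64 ± 0.19 (SE; adjusted p = 0.998). BHLHE40, a factor for cytokine production in activated T cells, had changes of 0.46 through 0.99 to 1.92 under anti-IL-15 and -0.30 through 0.03 to 1.20 under IgG1, a difference of 0.85 ± 0.28 (SE; adjusted p = 0.998). ID2, which restrains E protein transcription factors, had a difference of 0.64 ± 0.29 (SE; adjusted p = 0.998), and 0.22 with its second probe. TBX21, the Th1 factor T-bet, and GATA3, the Th2 factor, had differences of -0.24 and -0.55.

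Of 15 cytotoxic granule genes 10 were tested, 7 had a positive difference and 1 had an unadjusted p below 0.05. Over all genes 45.4% had a positive difference and 3.77% an unadjusted p below 0.05. The 1 cytotoxic gene at that level was GNLY, which encodes the pore-forming protein granulysin. Its level ran from 5.56 through 6.04 to 7.07 before and 6.05 through 6.87 to 7.46 after anti-IL-15, and from 4.82 through 5.91 to 6.19 before and 5.11 through 5.51 to 6.36 after IgG1. The change was above 0 in 6 of 6 anti-IL-15 animals, though by only 0.01 in animal 2, and ran from -0.69 through 0.06 to 0.42 under IgG1, with a difference of 0.76 ± 0.26 (SE; adjusted p = 0.998). CST7 and SRGN, a protease inhibitor and a proteoglycan of granules, had differences of 0.35 and 0.33. GZMA and PRF1, granzyme A and perforin, had differences of 0.11 and -0.23. GNLY is also a marker of NK cells, whose 17 listed markers had a summed signal of 424 to 765 before and 437 to 618 after anti-IL-15, and of 435 to 566 before and 410 to 520 after IgG1. Of these markers 10 were detected on at least 1 array, while KLRD1, KLRC2, KLRC3, NCR1, KIR3DL1, XCL1 and XCL2 were detected on none. Of the 4 NK markers tested, 2 had a positive difference with a median of 0.00, and the part of NK cells in the GNLY value was not tested.

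Stress and glucocorticoid response genes varied widely between animals. GADD45A, a growth arrest gene, had changes of -0.21 through 0.80 to 2.05 under anti-IL-15 and -0.51 through 0.12 to 1.32 under IgG1, a difference of 0.84 ± 0.35 (SE; adjusted p = 0.998). SGK1, a kinase gene induced by glucocorticoids, had changes of -0.02 through 1.67 to 3.08 and -0.09 through 0.57 to 1.40, a difference of 0.83 ± 0.41 (SE; adjusted p = 0.998), which was 0.50 without anti-IL-15 animal 3 and 0.52 with its second probe. KLF9, another glucocorticoid target, had a difference of 0.85 ± 0.31 (SE; adjusted p = 0.998), but the groups differed by -0.78 before treatment and by 0.07 after it. DUSP1, a MAP kinase phosphatase that glucocorticoids also induce, went the other way, with a difference of -0.64 ± 0.27 (SE; adjusted p = 0.998), and its relative DUSP8 had -0.47. IER3, an immediate early survival gene, had a difference of 0.69 ± 0.31 (SE; adjusted p = 0.998). Of 9 glucocorticoid response genes tested of 13 listed, 6 had a positive difference with a median of 0.14 (0.05 without anti-IL-15 animal 3), and of 10 GADD45 and DUSP genes tested of 12, 5 did with a median of 0.06 (0.11 without that animal).

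Metabolic, ribosomal and surface receptor lists held few genes at an unadjusted p below 0.05. Of all genes 3.77% lay at that level and 45.4% had a positive difference. Of 64 oxidative phosphorylation genes 46 were tested, with 0 at that level and a median difference of 0.01. Of 76 ribosomal protein genes 57 were tested, with 1 at that level, RPL35 at 0.56, and a median of -0.02. Glycolysis genes had a median of 0.15 over 19 tested of 23. Their lowest p belonged to LDHA, lactate dehydrogenase A, at 0.59 ± 0.22 (SE; adjusted p = 0.998), whose second probe gave 0.01, while the first glycolytic enzyme gene HK1 had -0.44. T cell receptor complex and signalling genes had the lowest median of the pathway lists, -0.15 over 16 tested of 20, with 5 positive; the lowest p there was that of CSK, a kinase that restrains receptor signalling, at -0.61 ± 0.23 (SE; adjusted p = 0.998). Proliferation genes had a median of 0.02 over 25 tested of 36, and STMN1, a tubulin-binding protein of dividing cells, had a difference of 0.51 (0.26 without anti-IL-15 animal 3). The medians were 0.04 for 12 memory and quiescence genes, 0.25 for 10 activation receptors, 0.28 for 9 HLA class II genes and -0.01 for 16 chemokine receptors and integrins, each with 0 genes at an unadjusted p below 0.05. CTLA4 and LAG3, inhibitory receptors, had differences of 0.43 (0.41 and 0.04 with its other probes) and 0.35, and HLA-DPA1 one of 0.32 (0.13 without anti-IL-15 animal 3). AP-1 and immediate early genes (20 tested of 28) had a median of 0.17, NF-kB genes (13 of 19) of -0.04 with NFKBIE, an inhibitor of NF-kB, at -0.50, cholesterol synthesis genes (7 of 17) of 0.13, and protein stress genes (12 of 18) of 0.13 with TRIB3 at 0.56. Relative to the median of all genes, which median scaling shifted to -0.15, the list medians that turned or left 0 with that scaling were those of oxidative phosphorylation (0.04 to -0.05), ribosomal proteins (0.00 to -0.10), chemokine receptors and integrins (0.02 to -0.01) and NF-kB genes (-0.01 to 0.02), while memory and quiescence genes went from 0.07 to 0.00. On the same relative scale SOCS genes stood at 0.06 and 0.09, STAT5-induced genes at 0.04 and 0.02, glycolysis genes at 0.17 and 0.10, and glucocorticoid response genes at 0.16 and 0.04. Without anti-IL-15 animal 3 the medians were -0.04 for memory and quiescence genes, -0.02 for proliferation genes, -0.01 for oxidative phosphorylation, 0.07 for glycolysis, 0.04 for protein stress, 0.23 for cholesterol synthesis and 0.17 for HLA class II genes. The HLA class II median was also 0.09 without anti-IL-15 animal 6 and 0.12 without IgG1 animal 2. Per animal, the median change over these HLA genes was above 0 in 1 of 6 anti-IL-15 animals and 3 of 6 IgG1 animals. Its medians were -0.16 and -0.01, so by this measure the list did not lie higher under anti-IL-15.

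The 12 genes of lowest p with the lower change under anti-IL-15 were members of none of the gene lists. The lowest p among them was that of MAP2K2, a kinase of the ERK pathway. Its level ran from 5.33 through 5.72 to 6.97 before and 4.89 through 5.31 to 5.91 after anti-IL-15, and from 4.63 through 5.30 to 5.54 before and 5.45 through 5.67 to 6.16 after IgG1. It was lower after treatment in 4 of 6 anti-IL-15 animals (changes -1.06 through -0.66 to 0.26) and higher in 6 of 6 IgG1 animals (0.25 through 0.65 to 0.82), and the groups overlapped by 1 animal on each side. The difference was -1.06 ± 0.23 (SE; 95% interval -1.53 to -0.58; adjusted p = 0.895). Its level before treatment was higher in the anti-IL-15 animals by 0.65, and after treatment it differed by -0.40. EHMT2, a histone H3 lysine methyltransferase, had changes of -0.95 through -0.33 to 0.01 and 0.15 through 0.51 to 0.62, without overlap, a difference of -0.81 ± 0.19 (SE; adjusted p = 0.998). It too differed before treatment, by 0.54. OAZ2, an inhibitor of polyamine synthesis, had a difference of -0.87 ± 0.22 (SE; adjusted p = 0.998).

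Others in this direction were OSBPL3, a lipid-binding protein gene, at -0.72, UAP1L1 at -0.63, SRGAP2 at -0.76 (-0.13 with its second probe), GIGYF1, a translational repressor partner, at -0.67, SCAF4, an RNA processing factor, at -0.81, and CHMP1A, a subunit of the ESCRT-III complex, at -0.71. In the 12 lower genes of lowest p, the mean change was above 0 under IgG1 and below 0 under anti-IL-15 in all 12, so both groups contributed; these genes were chosen by the difference. OR2Z1, OR2A1 and LY6E-DT, at -0.71, -0.63 and -0.84, were not detected on any array of at least 1 of the 4 groups and carry no fold here. Before treatment all 12 lower genes of lowest p were higher in the anti-IL-15 animals, GIGYF1 by 0.70 against 0.02 after treatment. In the 12 higher genes of lowest p, 9 were lower in those animals before treatment. For 12 of these 24 genes the difference before treatment was larger in size than that after it. Over all genes the difference before treatment was opposite in sign to the difference in change in 67.8%. These 2 differences share the arrays taken before treatment.

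In the other direction, TIPARP, a target of the aryl hydrocarbon receptor, had changes of -0.04 through 0.32 to 0.67 under anti-IL-15 and -0.75 through -0.52 to 0.12 under IgG1, a difference of 0.74 ± 0.20 (SE; adjusted p = 0.998). DDX21, a helicase of ribosome production, had a difference of 1.10 ± 0.37 (SE; adjusted p = 0.998), with changes from -0.74 to 1.95 under anti-IL-15. It was -0.80 apart before treatment. BTG3, an antiproliferative gene, had a difference of 0.83 and a difference before treatment of -0.82, so that the groups ended 0.01 apart, while its second probe gave a difference in change of 0.29. MYLIP, a ubiquitin ligase that degrades the LDL receptor, had a difference of 0.59, with the anti-IL-15 changes from -0.07 through 0.67 to 0.74. SNORA35, a small nucleolar RNA, had 0.56, and the dim FAM169BP and PDPR2P, both detected on no array of at least 1 group, had 0.90 and 0.65. In 9 of the 12 higher genes of lowest p the mean change under IgG1 was below 0, and for BHLHE40, IRF1 and NFIL3 it was 0.24, 0.22 and 0.01.

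**Figure D5:**
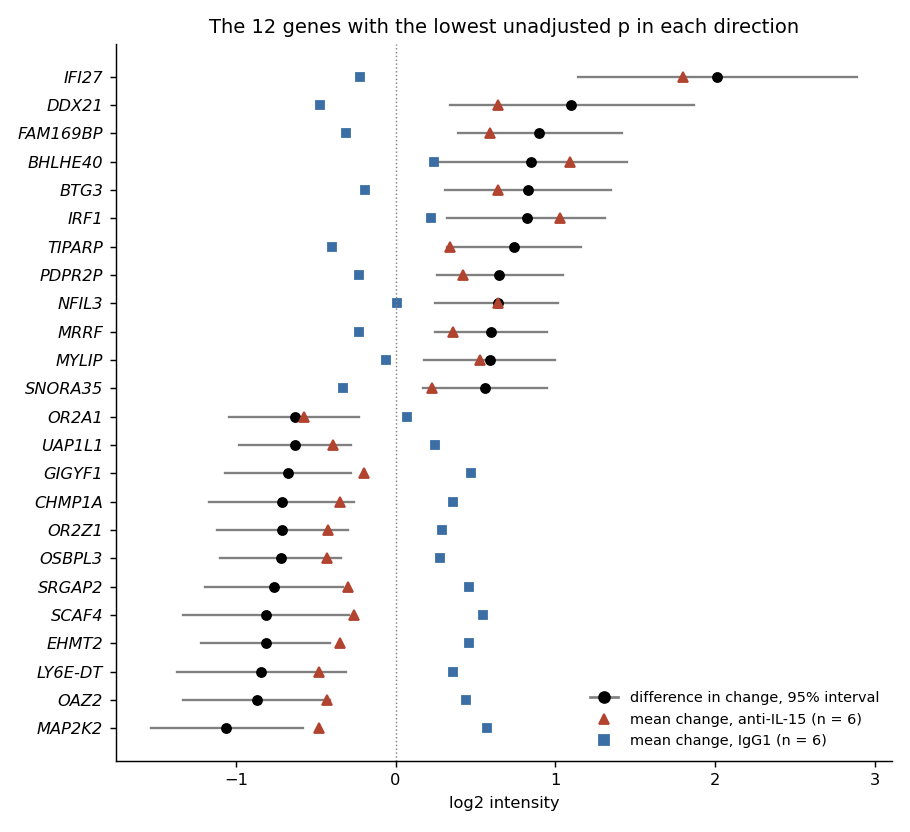
Difference in change (black points, log2, with 95% interval as a grey line) of the 12 genes with the lowest unadjusted p in each direction, with the mean change under anti-IL-15 (red triangles) and under IgG1 (blue squares). IFI27 stands out at 2.01, while the 12 lower genes run from -1.06 to -0.63 with IgG1 means above 0.

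Complete separation of the 2 groups of animals was rare, in 19 of 8919 genes. This was near the share that random assignment of the animals gives, since 0.00216 of the 924 assignments separate a gene fully. For 7 genes (0.0785%) all 6 changes under anti-IL-15 lay above all 6 under IgG1, and for 12 genes (0.135%) they lay wholly below. Those with the largest differences above were MRRF, a mitochondrial ribosome recycling factor, at 0.60, SNORA35 at 0.56, F8A2 at 0.54, the zinc finger gene ZNF500 at 0.48 and the sulfatase gene ARSD at 0.43 (0.76 with its second probe). The tested probe of F8A2 was detected on 13 of 24 arrays and that of ARSD on 17. Those below were EHMT2, OSBPL3, GIGYF1, RNPEPL1 at -0.64, an aminopeptidase-like gene, and UAP1L1. RNPEPL1 and F8A2 differed by 0.47 and -0.45 before treatment and by -0.17 and 0.09 after it. In MRRF the change was above 0 in 6 of 6 anti-IL-15 animals (0.00 after rounding, through 0.42 to 0.56) and below 0 in 6 of 6 IgG1 animals (-0.40 through -0.23 to -0.09). Its level was lower before treatment in the anti-IL-15 animals, by -0.47, and its probe was detected there on 2 of 6 arrays before and 5 of 6 after treatment. UAP1L1 showed the reverse, with -0.64 through -0.44 to -0.06 under anti-IL-15 and 0.12 through 0.24 to 0.33 under IgG1. Neither IFI27 nor IRF1 was among the separated genes.

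The 2 groups of animals were also compared at each single time, in fits without the animal as a block, with a median standard error of 0.16 before and 0.17 after treatment against 0.22 for the difference in change. Before treatment 0 genes (0%) passed the adjusted threshold and 1029 (11.5%) had an unadjusted p below 0.05. After treatment 3 genes (0.0336%) passed and 925 (10.4%) had an unadjusted p below 0.05. Both shares lay above the share of 0.05 expected if no gene differed, while that for the difference in change, 3.77%, lay below it. The shares at single times and that for the difference in change come from unlike fits. The 3 genes after treatment, named after their values were seen, were PSMB3, a proteasome subunit, higher in anti-IL-15 animals by 1.04, and GET4, of membrane protein insertion, and BBLN, lower by -1.12 and -0.92 (adjusted p = 0.0481 for each). They had differed in the same direction before treatment, by 0.58, -0.72 and -0.54, and their differences in change were 0.46, -0.40 and -0.37. Of the 12 fits that each left out 1 animal, 8 gave 0 such genes.

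The difference in change of CD4 TCM was also set against that of CD8 TCM from the same animals, in a fit of both cell types over 9350 genes. For the difference between them, 0 genes (0%) passed the adjusted threshold (lowest adjusted p 0.185) and 269 had an unadjusted p below 0.05. The lowest p belonged to TBC1D19, a Rab GTPase activating gene, with a difference of 0.91 in CD8 TCM and -0.51 in CD4 TCM. ISM1, a secreted protein gene, had 1.07 and -0.34, and IL17D, a cytokine gene, -0.56 and 0.59. OAZ2 had 0.56 in CD8 TCM against -0.87 in CD4 TCM, and MRRF -0.49 against 0.60. None of these 5 passed in either cell type alone, and they were chosen by the difference between the cell types. The 5 genes singled out by earlier results of these same data had positive differences in both cell types. They had been picked in the anti-IL-15 animals, so their signs are no independent evidence. In CD8 and CD4 TCM the differences were 1.44 and 2.01 for IFI27, 0.35 and 0.82 for IRF1, and 0.47 and 0.29 for SOCS1. BHLHE40 had 0.97 and 0.85, NFIL3 0.69 and 0.64, and GNLY 0.77 and 0.76. Of the lower genes, MAP2K2 had -0.39 and -1.06, and EHMT2 0.05 and -0.81.

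Erythroid markers varied widely between arrays, and none passed the test of the difference in change. Of 10 listed 5 were tested, 0 had a positive difference and their median was -0.56. HBB, beta globin, ran from 9.09 through 12.03 to 14.07 before and 8.37 through 11.28 to 14.11 after anti-IL-15, and from 8.34 through 10.37 to 13.53 before and 8.53 through 11.27 to 13.14 after IgG1. Its difference in change was -1.10 ± 0.51 (SE; adjusted p = 0.998), with a difference before treatment of 1.38, and HBA2, alpha globin, had -0.85 ± 0.53 (SE), or -0.55 without anti-IL-15 animal 3. The summed signal of 6 detected erythroid markers ran from 688 to 22380 before and 444 to 23761 after anti-IL-15, and from 578 to 15466 before and 601 to 11254 after IgG1; CA1 and SLC4A1 were detected on no array. The ranges overlapped almost wholly, and the part of globin RNA in other values was not tested. B cell, granulocyte and platelet markers had medians of -0.12 over 4 genes, 0.10 over 3 and -0.14 over 2, and regulatory T cell markers of 0.02 over 6.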

How the data were processed

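Total RNA of sorted CD4 TCM was amplified and hybridised to Illumina human BeadChips by the authors, per the labels' protocols. The deposited table of non-normalized values holds the mean intensity of each probe on each array. Per the file headers, each intensity is followed by its detection p-value, deposited with it. A second deposited table gives the authors' values on the log2 scale. Quantile normalization alone, run here on the intensities, matched 99.8% of them to 0.001, so no background had been subtracted in it. Per the submitters' processing notes limma was used. The probes are human, and a gene without signal here may still be expressed.

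With R 4.3.3 and limma 3.58.1, 13 probes with a reading of 0 were left out and neqc (background from the detection p-values, offset 16, quantile normalization over 49 arrays, log2) was run. Of the probes, 30105 had 1 gene symbol, 8 several and 17104 none; only the first were tested as genes. Probes with a detection p below 0.05 in 6 or more of the 24 CD4 TCM samples were retained, and the brightest probe of a gene was tested. Of 31 described genes with several kept probes, 11 had probes that differed in sign. The functions lmFit and eBayes fitted a coefficient for every animal (the block) and 1 term after treatment for each antibody; both groups at 1 time were compared without a block. The animal named in the labels pairs the samples: deviations from the group means of an animal's 2 arrays correlated at 0.010 to 0.537 (median 0.299). Adjustment of p-values was by Benjamini-Hochberg, across every gene tested. The fits were tested on simulated data. Figures were drawn with Python and matplotlib.

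Named genes were the 12 of lowest p in each direction, the 5 largest differences in each direction without overlap, all detected IL-15 pathway and SOCS genes, up to 3 of lowest p of each other list, 5 genes singled out by earlier results (IFI27, SOCS1, IRF1, BHLHE40, NFIL3) and the 5 of lowest p between cell types. Other list members are given as examples. The members, lists and rule were chosen with earlier results of these data known. Depth is limited by the number of arrays. The alternatives are given in the closing section. No sequences were used.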

Additional observations from a re-analysis of the deposited data

Results flagged for a closer look

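In sets of 6 changes of one group of animals, 15 of 204 sets held a value far from the others by Dixon's criterion; chance flags about 1 in 20 sets. The share of genes with a change of more than 1 in size was 16.0% in anti-IL-15 animal 3, against 1.95% to 2.96% in the other 5, and 3.51% in IgG1 animal 1, against 0.348% to 1.10%. Anti-IL-15 animal 3 was also far from the others in GIGYF1 (-0.84), SOCS7 (-0.92), STMN1 (1.25), VCAN (0.83) and the median of NF-kB genes (-0.32). Anti-IL-15 animal 6 was far from the others in FAM169BP (-0.04), MYLIP (-0.07) and the median of HLA class II genes (0.53), and animal 2 in JAK1 (0.37) and the median of ribosomal protein genes (-0.14). Among IgG1 animals, animal 6 stood off in SCAF4 (-0.36) and the SOCS list (-0.22), and animal 1 in HK1 (0.97).

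MRRF and UAP1L1 had changes of one sign in all 6 animals of one group and of the other sign in all 6 of the other, with differences of 0.60 and -0.63. Neither difference passed the adjusted threshold (adjusted p = 0.998 for each).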

How the results depend on the processing

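The difference in change between the antibodies gave 0 genes past the adjusted threshold under all 14 other settings run. The same held with each of the 12 animals left out, and the lowest adjusted p was 0.16 (array weights). Over the same 8919 genes, those at an unadjusted p below 0.05 ran from 253 (no replicate block) to 649 (without anti-IL-15 animal 6). They were 245 of 6698 genes with the stricter filter on dim probes and 857 of 20041 without the filter. With the main settings 35.7% of the genes at that level had the higher change, against 8.76% of 639 under median scaling. Among 23 pathway lists, 18 had a median difference above 0. Under median scaling 10 of these 18 fell below 0 and 2 became 0.00. The 3 genes that rose under anti-IL-15 became 1 without the filter on dim probes, 5 with array weights, 6 with both cell types in 1 fit, and 0 with the sorted cell number as a covariate, without the replicate block or with the replicate block as a random effect; with animals left out the count ran from 0 (anti-IL-15 animal 4) through 6 (animal 5) to 17 (animal 6). IgG1 gave 1 gene with array weights, as did CD8 minus CD4 TCM. Before treatment 2 genes passed with the deposited value table, with no background correction and at the 0.1 threshold, and 0 to 4 with animals left out, the 4 without IgG1 animal 2. The 3 genes after treatment became 16 with the deposited values or no background correction, 10 with normexp offset 50, 9 with robust moderation or at 0.1, 21 with array weights, 0 with no filter, the most variable probe or the cell covariate, and 0 to 4 with animals left out, with 3 remaining in number without anti-IL-15 animal 4 and 4 without animal 6, 1 without anti-IL-15 animal 2 or IgG1 animal 6, and 0 without any other. The 19 genes without overlap became 46 without the filter and 22 to 77 with animals left out, where fewer animals make separation easier; the most, 77, came without anti-IL-15 animal 6. The sorted cell difference ran from -0.771 to -0.425, and its exact permutation p was 0.0281 without anti-IL-15 animal 6.

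Of 79 genes, 68 kept the sign of their difference throughout and 0 passed the adjusted threshold anywhere. F8A2, ARSD, OAZ2, CHMP1A, DUSP1 and DUSP8 were among those too dim for the stricter filter, which asks for detection in 18 samples. Signs turned with array weights for IL4R (0.05), IL21R (0.01), SOCS5 (-0.09), SOCS7 (0.00) and CISH (-0.18); with the cell covariate for IL2RB (-0.21), SOCS4 (0.13), SOCS5 (-0.04) and CISH (-0.15); with the deposited values or no background correction for SOCS2 (0.01); and with median scaling for CISH (-0.05). With animals left out, differences ran from -0.39 to 0.01 for IL7R, -0.15 to 0.05 for IL4R, -0.15 to 0.06 for STAT5A, -0.15 to 0.05 for STAT5B, -0.12 to 0.12 for IL21R, -0.29 to 0.17 for SOCS2, -0.08 to 0.21 for SOCS5, -0.19 to 0.03 for SOCS7 and -0.18 to 0.25 for CISH. The causes were not tested. The slide covariate was not run, because the headers used here name no slide.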
